A study of Triticum aestivum with 20 samples.

Results

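In the anthers of the wheat line BS366, 16 of the 28894 probe sets on the array were bright in all control anthers of 1.5 to 2.5 mm and dim in control anthers of 3.0 mm. They were selected on the values of the control arrays. A probe set was taken when its log2 value was 10 or more in all 8 control arrays of the 4 shorter stages and 7 or less in both control arrays of 3.0 mm. Probe sets of 4 histone clusters were to be left out, but 0 of those that met the thresholds belonged to them, and the limit of 300 was not reached. The question was how far anthers of the same length from cold-treated plants held the level of these 16 probe sets. In 12 of them the mean cold level of 3.0 mm was above that of the earlier control anthers, and the lowest one, Ta.1345.1.S1_x_at, was at −1.09 from it on the log2 scale. The share of all probe sets with such a higher cold level was not counted. The lowest of the 32 values of the 16 probe sets in cold anthers of 3.0 mm was 9.10, while the highest of their 32 values in control anthers of 3.0 mm was 6.86.

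The line is of the temperature-sensitive genic male sterile (TGMS) kind. Its plants set pollen at the control temperature and are male sterile after cold treatment. After natural vernalization, plants were held for 5 d under 4 conditions. Cold meant 10 °C, with a day of 12 h (A) or 14 h (B), and control meant 20 °C, again with a day of 12 h (E) or 14 h (F). The anthers were of 5 lengths (1.5, 2.0, 2.2, 2.5 and 3.0 mm), which stand for stages, and biotin-labelled RNA of each condition and stage was put on 1 Wheat Genome array of Affymetrix, 20 in all. The labels also have the plants moved afterwards to 20 °C with 12 h of light, and none of the sources used here says whether anthers were taken before or after that move. At each temperature and stage the only replicates were the array with 12 h and that with 14 h (n = 2), so that a p-value between stages measures the spread between these arrays after a photoperiod term. In a test of day length, the p-value measures how the 14 h minus 12 h difference varied over the stages. Each day length had 1 array per stage, so day length and other differences between these groups of plants cannot be told apart. How many plants stand behind an array is not given, and all arrays are of 1 line.

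A probe set is a group of short oligonucleotides on the array that together report 1 transcript or a few similar ones. The start of an ID such as Ta.15955 names the cluster of wheat transcript sequences it was designed from, and an ID starting with TaAffx names a sequence outside those clusters. An ending in _a_at marks oligonucleotides that match several transcripts of a cluster, and an ending in _x_at marks some that can also bind other transcripts, so that similar gene copies of this hexaploid plant may share a signal. A gene symbol was given for 845 probe sets of the array and for 0 of the 16. The genes of these 16 are therefore unnamed here, and no role is given to them. Of the 16, 13 had an ID starting with Ta. and 3 with TaAffx, and 11 ended in plain _at, 3 in _a_at and 2 in _x_at. Ta.30400.1.A1_at and Ta.30400.1.A1_x_at were designed from the same sequence, so that the 16 probe sets stand for 15 sequences.

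An anther holds the developing microspores and, around them, the tapetum, a cell layer that feeds them and builds the pollen wall before it breaks down. As an anther grows, meiosis gives way to microspores and then to pollen, and the transcripts of an anther change with its cell types. In RNA of whole anthers, fewer cells of a type and less RNA per cell cannot be told apart. Anther length was the measure of stage, so a slower development of cold anthers for their length and an effect of cold on these transcripts cannot be told apart.

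The control arrays of 3.0 mm were more like each other than like any other array. Across the 13805 probe sets tested, their correlation was 0.971 between the pair and 0.547 to 0.712 against the remaining 18 arrays, a description over genes that are not independent. How alike those 18 arrays were among themselves is not given. Medians of the 20 arrays lay between 6.14 and 6.46. Of 18 histone probe sets, which mark dividing cells, 17 were lower in both control arrays of 3.0 mm than in all 8 earlier ones. That order held in 19.3% of the probe sets tested, and several of the 18 report the same gene. The summed level of the 18 on the log2 scale was 13.02 to 13.59 in control anthers of 3.0 mm. It was 14.39 to 16.38 in earlier control anthers and 15.58 to 15.63 in cold anthers of 3.0 mm. Of 5 tapetum probe sets, 4 for raftins and 1 for the lipid transfer protein LTP3, 3 were higher in control anthers of 3.0 mm than in all earlier ones. The share of all probe sets in that order was not counted. Their summed level was 15.40 to 15.63 there, 12.28 to 15.15 earlier and 14.12 to 14.77 in cold anthers of 3.0 mm. The sum hides LTP3, with means of 3.78 in earlier control anthers and 11.22 in those of 3.0 mm. In cold anthers of 3.0 mm the LTP3 mean was 2.51, near the lowest array value of 2.28. None of these defining markers was at the lowest value of an array in control anthers of 3.0 mm. The part of such shifts in the values of the 16 was not tested.

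The values that chose the probe sets are given first, with no test. In control anthers of 1.5 to 2.5 mm the 16 probe sets had means of 10.49 to 13.36 (median 11.52), and the lowest percentile of a value within its array was 90.47. In control anthers of 3.0 mm the means were 2.42 to 6.85 (median 5.05), with single values between percentiles 7.69 and 57.2 of their array. The measured difference was −4.17 to −10.72 on the log2 scale (median −7.22). The lowest value of the arrays was 2.28 and no detection call is given, so that differences to values near it, such as 2.42 and 2.43 for Ta.15818.1.S1_at, can understate the change, and their order is that of the measured values only. The corresponding median was −0.14 over the 1829 probe sets that were at 10 or more in the same 8 arrays and −0.09 over the 13805 probe sets tested. Both thresholds had probe sets close by. Inside the upper one, the lowest earlier control values were 10.05 for Ta.9449.1.A1_at, 10.09 for Ta.21787.1.S1_at and 10.13 for Ta.3663.1.A1_a_at. Just outside it, they were 9.98 for Ta.3605.3.S1_x_at, 9.96 for Ta.23086.2.S1_a_at and 9.93 for Ta.3609.1.S1_a_at. At the lower threshold, the highest value in control anthers of 3.0 mm was 6.86 for Ta.3605.2.S1_a_at, 6.79 for Ta.30400.1.A1_at and 6.33 for TaAffx.16144.1.S1_at. It was 7.04 for Ta.12529.1.S1_at, 7.05 for Ta.22962.1.S1_at and 7.08 for TaAffx.18815.1.S1_at, which were thereby outside.

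Few bright probe sets became dim. Of the 1829 bright in the 8 earlier control arrays, the 16 were 0.875%. Both control arrays of 3.0 mm were at 5 or less in 7 of the 1829, at 6 or less in 9, at 8 or less in 34, at 9 or less in 70 and at 10 or less in 180. In cold anthers of 3.0 mm, none of the 1829 had both arrays at 7 or less, and the lowest single value was 8.71, against 2.42 in control anthers. Both cold arrays of 3.0 mm were at 10 or more in 1755 of them (96.0%), and both control arrays of 3.0 mm in 1576 (86.2%). The same rule turned to the cold arrays found 0 of 2043 probe sets that were bright in the 8 cold arrays of 1.5 to 2.5 mm, while 35 of these 2043 were at 7 or less in both control arrays of 3.0 mm.

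**Figure D1:**
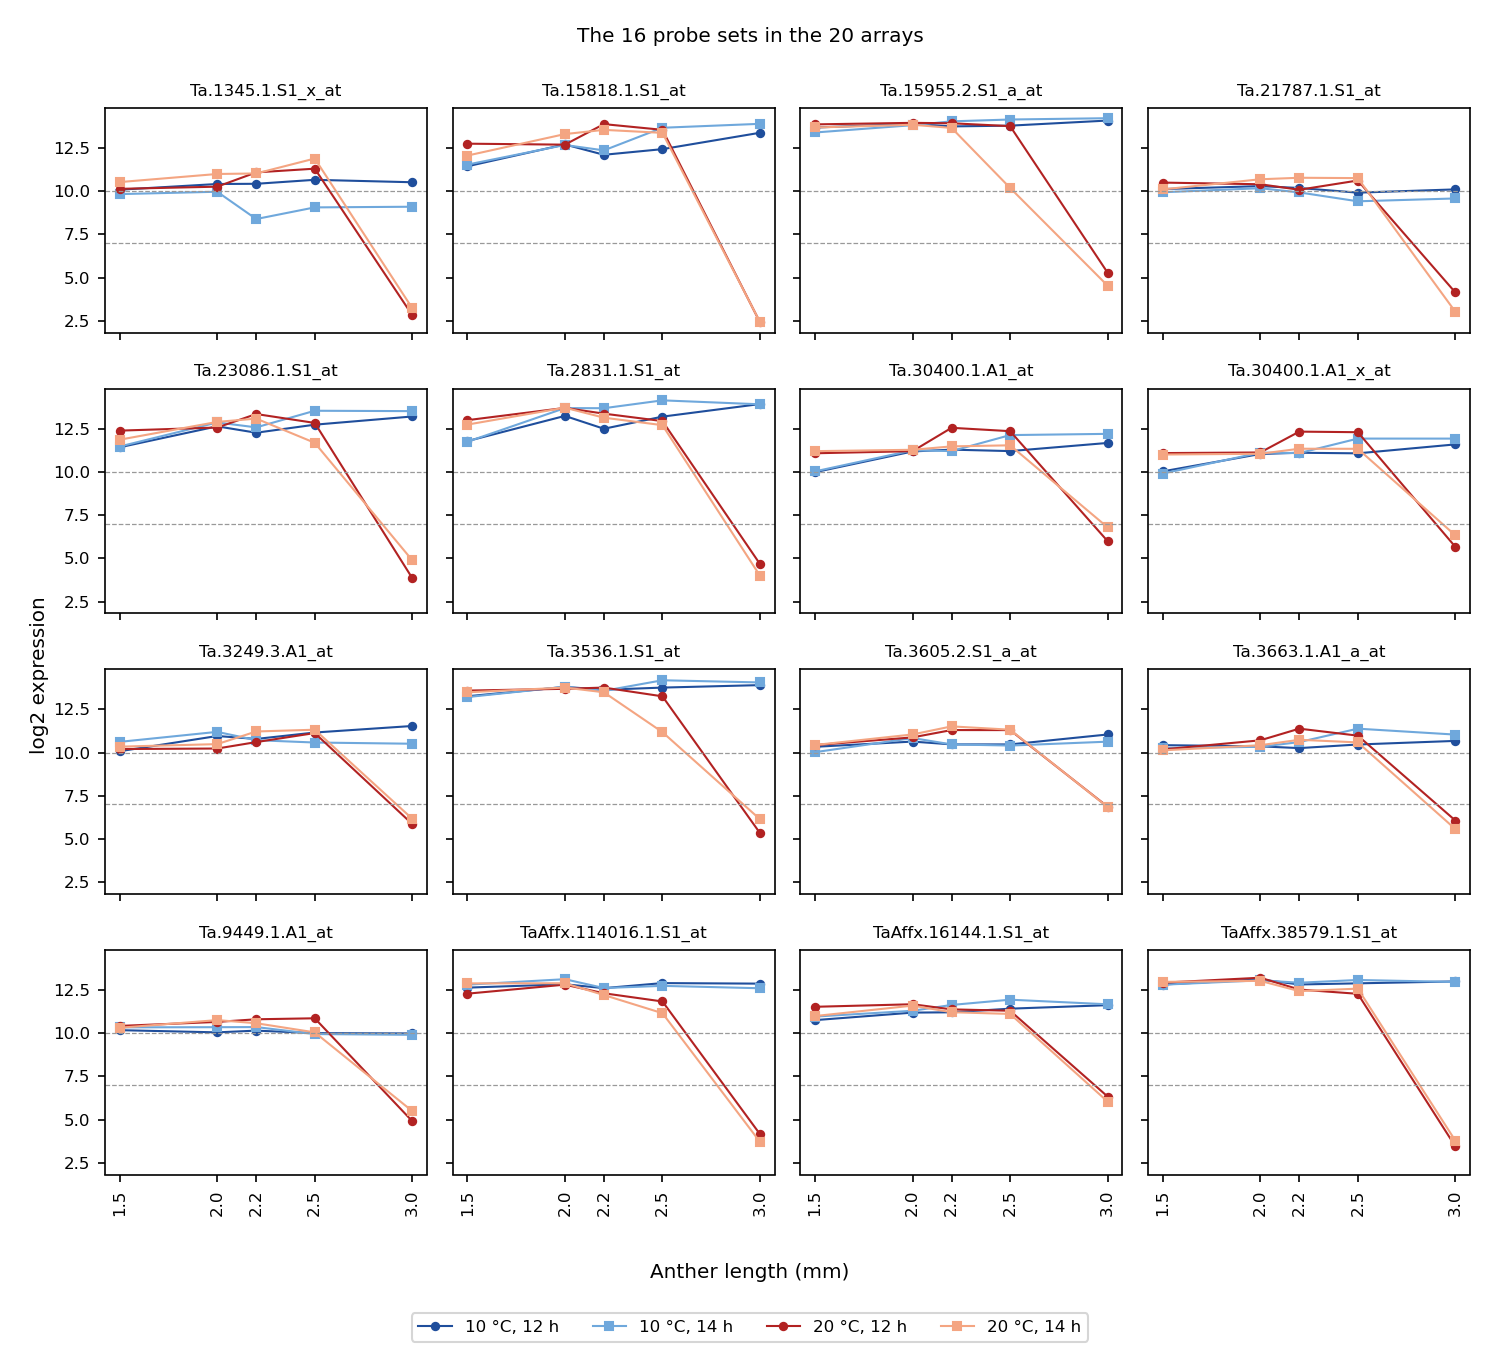
Log2 expression (vertical axis) of the 16 probe sets by anther length in mm (horizontal axis), 1 point per array, with cold arrays in blue and control arrays in red (circles, 12 h of light; squares, 14 h), and dashed lines at the thresholds of 10 and 7. In each panel both control lines end at 6.86 or less, and the cold lines stay at 8.39 or more.

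The cold arrays were not used to choose the probe sets. Of their 160 values in the 10 cold arrays, 145 were at 10 or more, and the lowest was 8.39, for Ta.1345.1.S1_x_at in 2.2 mm anthers with 14 h of light. Within its array, no cold value of the 16 was below percentile 75.1. In 11 of the 16, all 10 cold arrays were at 10 or more. Both cold arrays of 3.0 mm were at 10 or more in 13 (81.25%), against 96.0% of the 1829 bright probe sets. Background shares for the 145 values and for the 11 were not counted. The mean over the cold arrays of 3.0 mm was 9.81 to 14.16. The share of the control drop that cold anthers kept, taken as the distance of cold from control anthers of 3.0 mm in percent of the distance of earlier control anthers from control anthers of 3.0 mm, was 86.1% to 109% (median 105%). It was over 100% in 12 probe sets, which means that the cold level of 3.0 mm lay above the mean of the earlier control anthers, and under 90% in 2. How often either held over the bright probe sets was not counted. With 12 h of light the share was 89.4% to 118% (median 103%) and with 14 h it was 77.1% to 112% (median 107%). Since control arrays enter the share and chose the probe sets, it is a description.

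The probe set with the largest measured control drop was Ta.15818.1.S1_at. From 1.5 to 3.0 mm, its control values were 12.75, 12.70, 13.88, 13.55 and 2.42 with 12 h of light and 12.06, 13.31, 13.55, 13.38 and 2.43 with 14 h. Its cold values were 11.44, 12.71, 12.11, 12.44 and 13.38 with 12 h of light and 11.54, 12.68, 12.36, 13.67 and 13.90 with 14 h. Control anthers of 3.0 mm were near the lowest value of the arrays, 2.28, and the cold anthers of 3.0 mm, at 13.64 ± 0.37 (SD, n = 2), were 11.22 above control anthers of that length. TaAffx.38579.1.S1_at had the next largest measured drop, −9.13. Its control values were 12.92, 13.21, 12.53, 12.28 and 3.45 with 12 h of light and 12.97, 13.03, 12.44, 12.58 and 3.78 with 14 h. In the cold the values were 12.82, 13.11, 12.82, 12.89 and 12.996 with 12 h of light and 12.81, 13.06, 12.92, 13.08 and 12.97 with 14 h. These 10 cold values spanned only 12.81 to 13.11, and the control values of 1.5 to 2.5 mm spanned 12.28 to 13.21. Ta.2831.1.S1_at had control values of 12.99, 13.70, 13.37, 12.94 and 4.67 with 12 h of light and 12.74, 13.72, 13.14, 12.70 and 3.99 with 14 h. Cold anthers gave values of 11.78, 13.24, 12.50, 13.20 and 13.93 with 12 h of light and 11.74, 13.69, 13.69, 14.14 and 13.91 with 14 h. Both of its cold arrays of 3.0 mm were above all 10 of its control arrays, and its cold arrays of 1.5 mm were below all 8 earlier control arrays.

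In 3 probe sets the control level was already lower in 2.5 mm anthers with 14 h of light than with 12 h, by at least 1 on the log2 scale. Ta.15955.2.S1_a_at had control values of 13.87, 13.96, 13.93, 13.77 and 5.28 with 12 h of light and 13.69, 13.85, 13.66, 10.19 and 4.53 with 14 h. Its cold values were 13.69, 13.90, 13.75, 13.79 and 14.09 with 12 h of light and 13.40, 13.82, 14.04, 14.15 and 14.23 with 14 h. The cold arrays of 3.0 mm (14.16 ± 0.10, SD, n = 2) were the highest of the 16 probe sets and above all 8 earlier control arrays, while the 14 h minus 12 h difference of the control arrays of 2.5 mm was −3.58. Ta.3536.1.S1_at showed the same order, with control values of 13.59, 13.69, 13.76, 13.25 and 5.34 with 12 h of light and 13.49, 13.76, 13.49, 11.18 and 6.14 with 14 h. In the cold the values were 13.26, 13.80, 13.63, 13.76 and 13.90 with 12 h of light and 13.21, 13.81, 13.57, 14.18 and 14.06 with 14 h. In Ta.3536.1.S1_at the 14 h minus 12 h difference of the control arrays of 2.5 mm was −2.07. Ta.23086.1.S1_at had control values of 12.39, 12.57, 13.35, 12.83 and 3.85 with 12 h of light and 11.86, 12.89, 13.08, 11.68 and 4.88 with 14 h, and here the difference was −1.15. Cold anthers gave values of 11.42, 12.64, 12.27, 12.73 and 13.21 with 12 h of light and 11.47, 12.86, 12.58, 13.54 and 13.52 with 14 h. Over all 16, the 14 h control array of 2.5 mm was the lower one in 11, with a median difference of −0.31, against −0.13 over the 1829 bright probe sets, 42 of which were lower by at least 1, and −0.05 over those tested. This is a difference between 2 single arrays, with no replicate check, and both arrays entered the selection.

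TaAffx.114016.1.S1_at was lower in control anthers of 2.5 mm than in shorter ones, with control values of 12.29, 12.81, 12.31, 11.84 and 4.16 with 12 h of light and 12.88, 12.89, 12.21, 11.16 and 3.71 with 14 h. Its cold values were 12.64, 12.83, 12.61, 12.90 and 12.87 with 12 h of light and 12.81, 13.13, 12.61, 12.74 and 12.60 with 14 h. The cold arrays of 2.5 and 3.0 mm were all above both control arrays of 2.5 mm. TaAffx.16144.1.S1_at had control values of 11.53, 11.68, 11.38, 11.30 and 6.33 with 12 h of light and 10.99, 11.60, 11.22, 11.11 and 6.04 with 14 h. In the cold the values were 10.76, 11.19, 11.21, 11.42 and 11.62 with 12 h of light and 10.96, 11.30, 11.64, 11.94 and 11.67 with 14 h. At 3.0 mm the cold arrays differed by only 0.05, and they were above all 8 earlier control arrays except that of 2.0 mm with 12 h. The 2 probe sets of the Ta.30400 sequence ran in parallel, with control values of 11.08, 11.20, 12.55, 12.36 and 5.99 with 12 h of light and 11.20, 11.28, 11.48, 11.54 and 6.79 with 14 h for Ta.30400.1.A1_at. Cold anthers gave values of 9.98, 11.18, 11.29, 11.20 and 11.68 with 12 h of light and 10.03, 11.25, 11.20, 12.13 and 12.20 with 14 h. For Ta.30400.1.A1_x_at, which reports the same sequence, the values at 3.0 mm were 5.66 and 6.33 in control anthers and 11.59 and 11.93 in cold anthers. In both, the cold arrays of 1.5 mm were the lowest of the 10 cold arrays.

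The remaining 6 probe sets had the lowest means over the 8 earlier control arrays, at most 11.03. Ta.3663.1.A1_a_at had control values of 10.18, 10.71, 11.38, 10.98 and 6.07 with 12 h of light and 10.13, 10.42, 10.74, 10.59 and 5.57 with 14 h. Its cold values were 10.43, 10.36, 10.26, 10.47 and 10.67 with 12 h of light and 10.26, 10.33, 10.61, 11.38 and 11.04 with 14 h. Cold arrays of 3.0 mm lay within the range of its earlier control arrays. Ta.3605.2.S1_a_at had the smallest control drop, with control values of 10.43, 10.88, 11.30, 11.30 and 6.86 with 12 h of light and 10.44, 11.05, 11.51, 11.32 and 6.85 with 14 h. In the cold the values were 10.33, 10.64, 10.47, 10.47 and 11.05 with 12 h of light and 10.02, 10.84, 10.47, 10.40 and 10.63 with 14 h. Here the cold arrays of 3.0 mm were again within the earlier control range. Ta.3249.3.A1_at had control values of 10.20, 10.23, 10.61, 11.13 and 5.86 with 12 h of light and 10.34, 10.49, 11.22, 11.32 and 6.17 with 14 h. Cold anthers gave values of 10.08, 10.96, 10.79, 11.16 and 11.54 with 12 h of light and 10.62, 11.20, 10.72, 10.58 and 10.51 with 14 h. Its cold arrays of 3.0 mm differed from each other by 1.03, with the 12 h array above all 8 earlier control arrays.

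The lowest cold levels were those of Ta.1345.1.S1_x_at, Ta.21787.1.S1_at and Ta.9449.1.A1_at. Ta.1345.1.S1_x_at had control values of 10.14, 10.26, 11.09, 11.31 and 2.83 with 12 h of light and 10.53, 10.998, 11.03, 11.89 and 3.23 with 14 h. Its cold values were 10.09, 10.42, 10.43, 10.66 and 10.52 with 12 h of light and 9.83, 9.97, 8.39, 9.07 and 9.10 with 14 h. All 5 cold arrays with 14 h of light were below all 8 earlier control arrays, and of those with 12 h only that of 1.5 mm was. With 86.1% it had the smallest share kept. Ta.21787.1.S1_at had control values of 10.501, 10.40, 10.09, 10.62 and 4.14 with 12 h of light and 10.11, 10.69, 10.78, 10.76 and 3.03 with 14 h. In the cold the values were 10.13, 10.30, 10.19, 9.92 and 10.11 with 12 h of light and 9.94, 10.18, 9.93, 9.42 and 9.58 with 14 h. Its share kept was 90.6%. Ta.9449.1.A1_at had control values of 10.42, 10.65, 10.81, 10.86 and 4.91 with 12 h of light and 10.31, 10.76, 10.58, 10.05 and 5.49 with 14 h. Cold anthers gave values of 10.18, 10.05, 10.15, 10.005 and 9.99 with 12 h of light and 10.34, 10.35, 10.35, 9.95 and 9.91 with 14 h. Both cold arrays of 3.0 mm were below its 8 earlier control arrays, and its share kept was 88.6%.

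Set beside control anthers of the same length, 12 or 13 of the 16 probe sets were lower in the cold at 1.5, 2.0 and 2.2 mm, while at 2.5 mm as many were lower as higher. The median of cold minus control was −0.29 at 1.5 mm, −0.13 at 2.0 mm, −0.41 at 2.2 mm and −0.07 at 2.5 mm, and 13, 12, 12 and 8 of the 16 were lower in the cold. Over the probe sets tested, these medians were 0.03, 0.00, 0.11 and −0.05. How many of those tested were lower in the cold was not counted. At 3.0 mm the median was 6.52, with a range of 3.98 to 11.22, and 0 of 16 were lower in the cold. These differences hold control arrays that the selection used and carry no test.

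The first test asked whether the 16 changed in cold anthers of 3.0 mm against the shorter cold anthers, with the 10 cold arrays alone. The model in limma held a mean per stage and a photoperiod term, p-values were adjusted over the 13805 probe sets tested (Benjamini-Hochberg), and a call needed both an adjusted p below 0.05 and 2-fold or more. All 16 passed the filter on dim probe sets, also when the filter was set on the cold arrays alone. Of all probe sets tested, 1.33% were called (31 lower and 153 higher), and of the 16, 1 was called higher and 0 lower. Ta.15818.1.S1_at rose by 1.27 in cold anthers of 3.0 mm (standard error 0.23, 95% interval 0.73 to 1.82, adjusted p = 0.0497 from limma), while its difference in control anthers was −10.72. This call was at the threshold. Its adjusted p was 0.127 without the filter, 0.147 without the photoperiod term, 0.0648 without the variance trend, and 0.0734 to 0.241 without any 1 of the cold arrays of 1.5, 2.0, 2.2 or 3.0 mm, whereas the change itself stayed between 1.15 and 1.40 when any cold array was left out. Ta.23086.1.S1_at changed by 0.92 (standard error 0.14, adjusted p = 0.0349 from limma), short of 2-fold.

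The other changes in the cold were small. The median over the 16 was 0.34, against −0.09 over all probe sets tested, and 12 of 16 were positive, against 39.3% of those tested. The 95% interval, which is not adjusted for the number of tests, lay above 0 in 9 of them and below 0 in none, against 9.66% and 15.7% of those tested. Over all 16 intervals the lowest bound was −0.86, for Ta.1345.1.S1_x_at, so that a fall of 2-fold or more lay outside the interval of each. Ta.2831.1.S1_at changed by 0.92 (adjusted p = 0.0962 from limma) and the Ta.30400 probe sets by 0.90 and 0.85 (adjusted p = 0.0695 for both from limma). TaAffx.38579.1.S1_at changed by 0.04 (95% interval −0.16 to 0.25). The lowest estimates were those of Ta.9449.1.A1_at (−0.22, 95% interval −0.48 to 0.04) and Ta.21787.1.S1_at (−0.15, 95% interval −0.43 to 0.12). Both cold arrays of 3.0 mm were above all 8 earlier cold arrays in 0 of 16, against 3.35% of the probe sets tested, and below all of them in 0 of 16, against 3.77%. In 11 of the 16 the lowest cold value was in an array of 1.5 mm (22.6% of those tested), and in 12 the highest was in an array of 2.5 or 3.0 mm (37.9%).

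**Figure D2:**
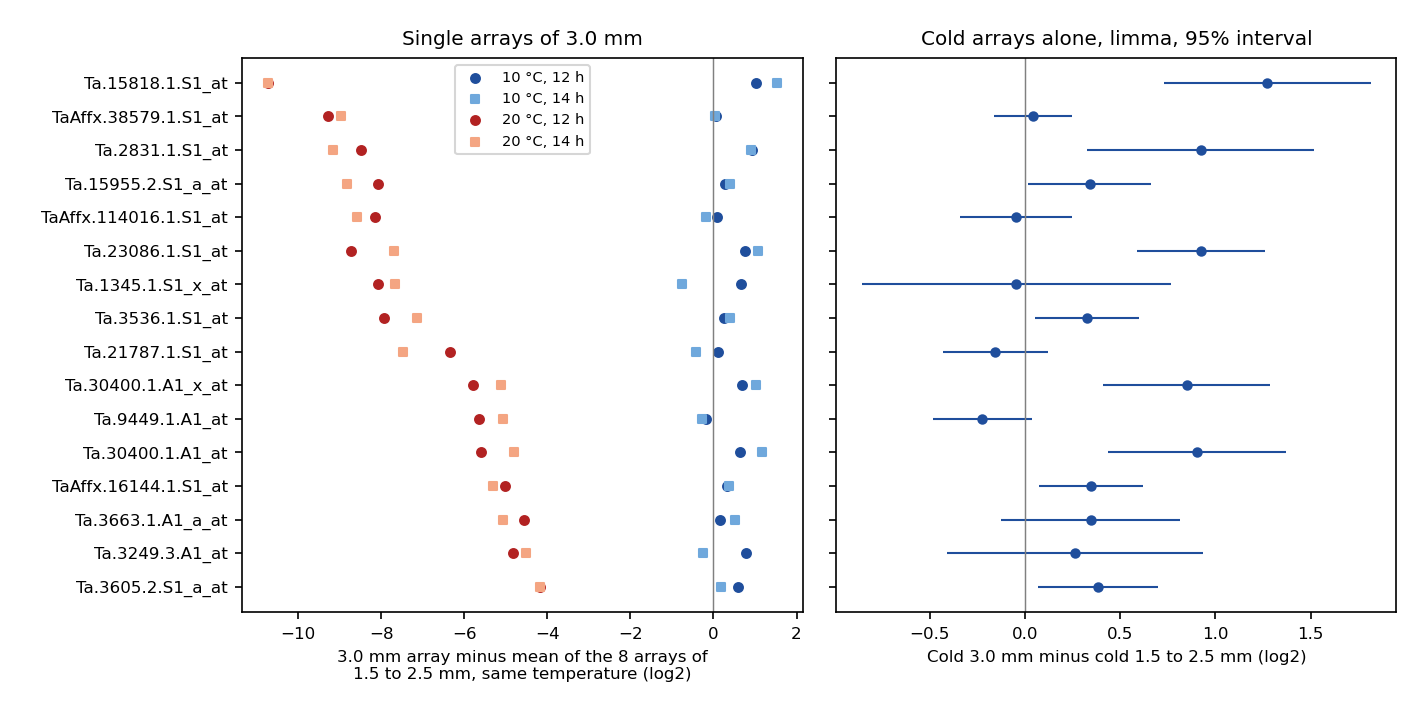
Left, log2 difference of each 3.0 mm array from the mean of the 8 arrays of 1.5 to 2.5 mm of the same temperature (horizontal axis) for the 16 probe sets, ordered by their control drop. Right, the cold difference from limma with its 95% interval on its own scale, which runs from −0.86 to 1.82, while the control means lie between −4.17 and −10.72.

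From 2.5 to 3.0 mm, the step at which the selection placed the control loss, the cold anthers changed little. Of the probe sets tested, 0.319% were called between cold anthers of 3.0 and 2.5 mm, all 44 of them higher. Of the 16, 0 were called. An unadjusted p under 0.05 in limma was found for 1 of the 16, against 5.37% of those tested. The 1 of the 16 was Ta.3605.2.S1_a_at, at 0.40 (95% interval 0.00 to 0.80, adjusted p = 0.927 from limma). Estimates ran from −0.08 to 0.59, and the lowest bound of an interval was −1.08, for Ta.1345.1.S1_x_at. For Ta.1345.1.S1_x_at alone, a 2-fold fall over this last step is thus inside the 95% interval.

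Day length in the cold was tested next. With 14 h against 12 h of light over the 5 cold stages, 0% of the probe sets tested were called, although 3468 of them and 5 of the 16 had an unadjusted p under 0.05 in limma. The largest estimate was that of Ta.1345.1.S1_x_at, at −1.15 (adjusted p = 0.133 from limma). In cold anthers of 2.5 and 3.0 mm, 11.5% of the probe sets tested were called (1114 lower and 468 higher with 14 h), and 1 of the 16 was. Ta.1345.1.S1_x_at was lower with 14 h of light by a log2 change of −1.51 (standard error 0.42, 95% interval −2.53 to −0.48, adjusted p = 0.0375 from limma). Its call was lost without the filter (adjusted p = 0.0755 from limma), with quantile normalization (0.0553) and without either cold array of 2.0 mm (0.0597 and 0.0599). Without a cold array of 2.5 or 3.0 mm the estimate rests on a single pair of arrays, so only its size is given. It was −1.42 without either array of 2.5 mm and −1.60 without either of 3.0 mm. A share of 1 in 16 is no larger than that over all probe sets.

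A further 7 of the 16 had an adjusted p under 0.05 for this comparison without reaching 2-fold, 5 of them with a positive and 2 with a negative change. Of the probe sets tested, 23.9% were of this kind, 6.61% with a positive and 17.3% with a negative change. The 7 were Ta.15818.1.S1_at (0.88), Ta.23086.1.S1_at (0.56), Ta.30400.1.A1_at (0.73), Ta.30400.1.A1_x_at (0.59) and Ta.3663.1.A1_a_at (0.64), and on the other side Ta.21787.1.S1_at (−0.51) and Ta.3249.3.A1_at (−0.80). Without either cold array of 2.5 mm, the estimate rests on the cold pair of 3.0 mm alone, so only its size is given. It was then 0.52 for Ta.15818.1.S1_at, 0.31 for Ta.23086.1.S1_at, 0.53 for Ta.30400.1.A1_at, 0.34 for Ta.30400.1.A1_x_at and 0.36 for Ta.3663.1.A1_a_at, all smaller. On the other side it was −0.52 for Ta.21787.1.S1_at and −1.03 for Ta.3249.3.A1_at, neither of them smaller. Without either cold array of 3.0 mm, the estimate rests on the cold pair of 2.5 mm alone, and it was 1.24 for Ta.15818.1.S1_at. With all cold arrays in the fit, the median over the 16 was 0.27, against −0.15 over all probe sets tested. Whether the effect of day length differed between cold anthers of 2.5 and 3.0 mm and those of 1.5 to 2.2 mm was tested as a difference of both effects. It was called in 4.4% of the probe sets tested and in 0 of the 16, of which 9 had an unadjusted p under 0.05 in limma, as had 32.5% of those tested. The estimate farthest from 0 was that of Ta.3249.3.A1_at, −1.04 (95% interval −1.60 to −0.48, adjusted p = 0.0520 from limma).

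**Figure D3:**
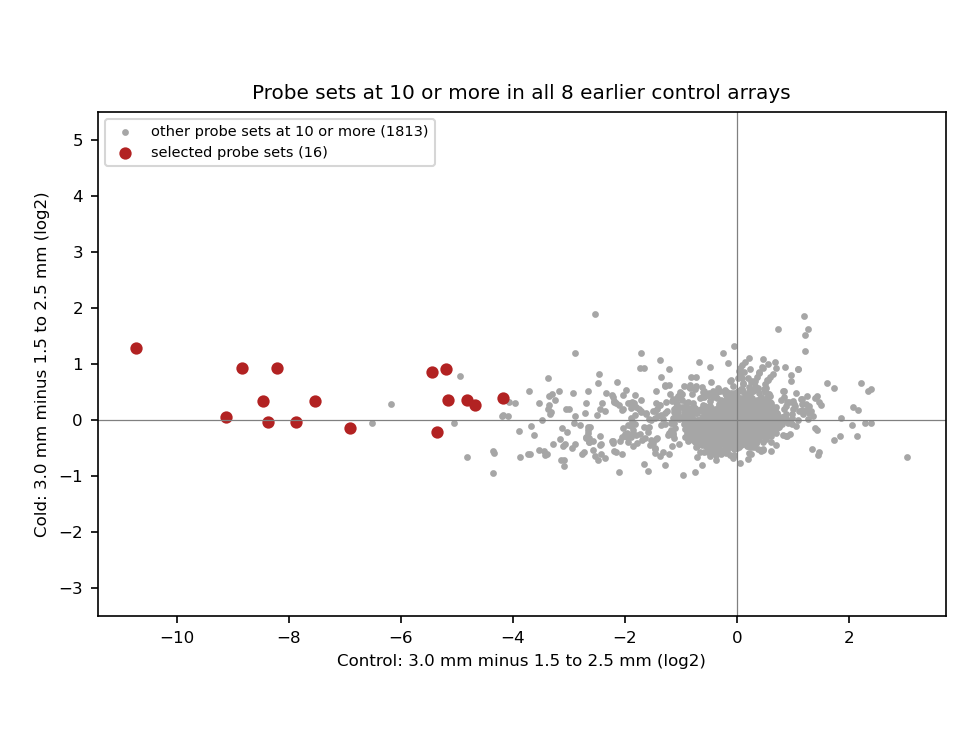
Change in control anthers (horizontal axis) against change in cold anthers (vertical axis), each as the mean of 3.0 mm minus the mean of 1.5 to 2.5 mm on the log2 scale, for the 1829 probe sets at 10 or more in all 8 earlier control arrays. The 16 selected probe sets (red) extend to −10.72 on the control axis by selection, and on the cold axis, where all 1829 lie between −0.99 and 1.88, they lie between −0.22 and 1.27.

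The clusters from which the 16 were designed hold 13 other probe sets, in 6 clusters, that the selection did not take. They report the same or similar transcripts on the same arrays, so they are further readings of these RNAs and not further samples. In all 13, both control arrays of 3.0 mm were at 7 or less and below all 8 earlier control arrays, an order found in 19.3% of the probe sets tested. Their control difference was −3.08 to −10.15 (median −7.06). Their change in cold anthers of 3.0 mm was −0.71 to 1.44 (median 0.45), and the share kept was 76.2% to 128% (median 99.3%). In the test of cold 3.0 mm against shorter cold anthers, 1 of the 13 was called, against 1.33% of the probe sets tested. The 1 called was Ta.23086.2.S1_a_at, which rose by 1.44 (standard error 0.20, adjusted p = 0.0299 from limma). Its counterpart among the 16, Ta.23086.1.S1_at, changed by 0.92.

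For 2 clusters the other probe sets repeated a feature of the selected one. The Ta.1345 probe sets Ta.1345.2.S1_x_at and Ta.1345.3.S1_x_at were at 9.77 and 10.36 in cold 2.5 mm anthers with 12 h of light and at 8.19 and 8.57 with 14 h. At 3.0 mm they were at 9.64 and 10.18 with 12 h and at 8.30 and 8.54 with 14 h. Both were called lower with 14 h in cold anthers of 2.5 and 3.0 mm, by −1.45 and −1.71 (adjusted p = 0.0409 and 0.0206 from limma). They were the only 2 of the 13 called in this test, which called 11.5% of the probe sets tested. How their calls fare under the alternatives is not given. All 3 probe sets of this cluster end in _x_at. The Ta.15955 probe sets Ta.15955.1.S1_a_at, Ta.15955.1.S1_x_at and Ta.15955.3.S1_x_at were at 13.46, 13.45 and 13.42 in control 2.5 mm anthers with 12 h of light and at 5.24, 5.01 and 7.88 with 14 h. In cold anthers of 3.0 mm their 6 values were 13.62 to 14.18. Within the cluster Ta.3249, the selected probe set and Ta.3249.1.S1_at were lower with 14 h in cold anthers of 3.0 mm (10.51 and 10.28, against 11.54 and 11.37 with 12 h), and Ta.3249.2.S1_x_at was not (9.55 against 9.23). The dimmest of the 13, Ta.9449.3.S1_x_at, was at 6.70 and 5.75 in cold anthers of 3.0 mm and at 3.41 and 3.12 in control anthers.

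**Figure D4:**
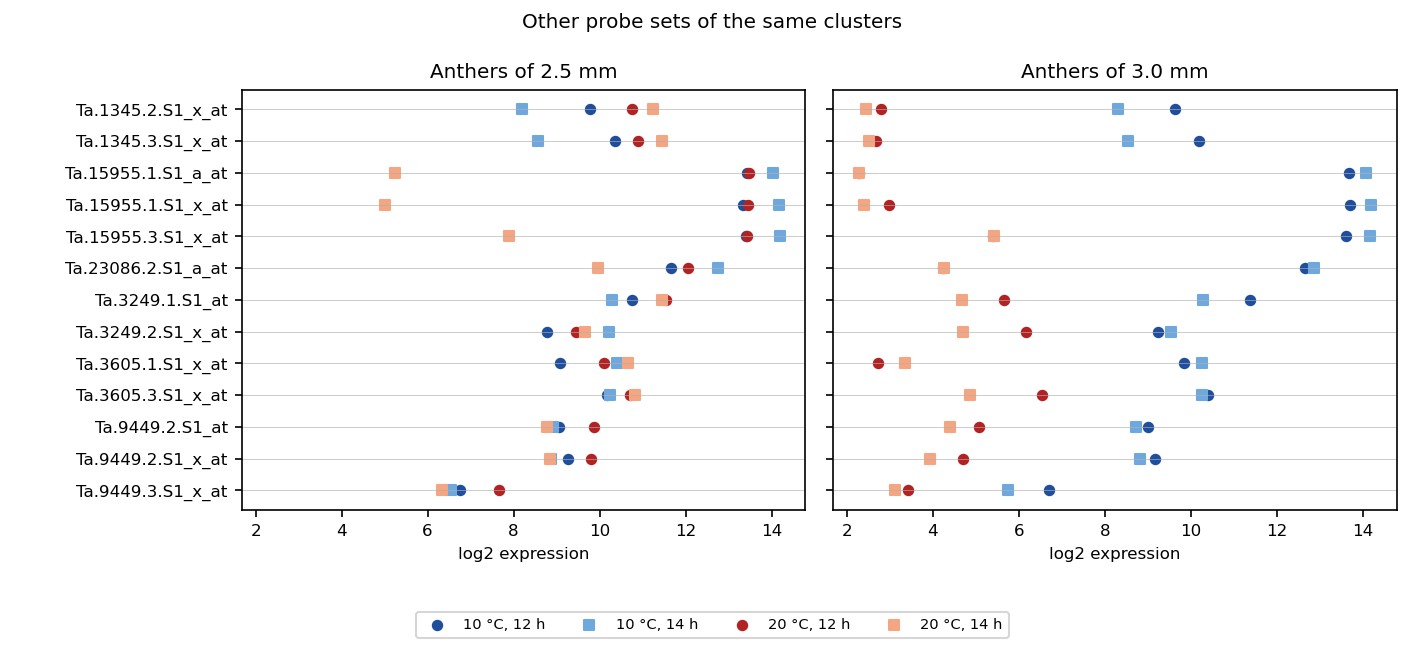
Log2 expression (horizontal axis) of the 13 other probe sets of the same clusters (rows) in anthers of 2.5 mm (left) and 3.0 mm (right), 1 point per array. At 3.0 mm the control points lie between 2.28 and 6.55, and within each row the cold points are to their right. At 2.5 mm the 14 h control points of the 3 Ta.15955 probe sets are already at 5.01 to 7.88.

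Among the control arrays, that of 2.5 mm with 14 h of light moved the count of probe sets found most. When each of the 10 control arrays was in turn not asked, a check added after seeing the data, 16 to 24 probe sets were found, except for that array, without which there were 30. The median share kept lay between 103% and 106% in all 10 cases. Seen from the cold arrays, 32 probe sets were at 10 or more in all 10 cold arrays and at 7 or less in both control arrays of 3.0 mm. Of these, 21 were not among the 16, and in 19 of the 21 the 14 h control array of 2.5 mm was below 10, in 11 of them at 7 or less. The 12 h control array of 2.5 mm was below 10 in 5 of the 21 and at 7 or less in 0.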

How the data were processed

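Anther RNA of 20 samples was measured on Affymetrix Wheat Genome arrays, 1 per condition and stage. The values deposited by the authors are log2 expression, with a column for each array, and were used unchanged. Per the labels they came from MAS5, for which no source used here gives a version or the scaling between arrays. The reporter control (1 of 28895 entries) was left out. The 16 probe sets and the marker lists were chosen with earlier results of these data known. Since the control arrays chose the probe sets, contrasts with control arrays are descriptions, and 5 contrasts were tested on the 10 cold arrays with limma 3.58.1 in R 4.3.3 (stage means, photoperiod term, variance trend). Residual degrees of freedom were 4, or 3 where light effects of earlier and later stages were separate. A probe set was tested if at some temperature and stage both of its values were over percentile 60 of their arrays (13805 probe sets), and 1564 of these, but 0 of the 16, hold a value equal to every decimal in 3 or more arrays, which can understate spread. The number of arrays limits the precision.

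Probe sets were to be named by symbol, by the 5 highest and 5 lowest cold levels at 3.0 mm, the 5 largest calls per direction and test, the 3 nearest each threshold and the 5 largest differences between the cold 3.0 mm arrays. The other selected probe sets and the 13 of the same clusters were added after their values were seen. Symbols came from the platform annotation (845 probe sets, 844 matched by gene ID to RefSeq genes of the assembly IWGSC CS RefSeq v2.1). Of 12 marker lists, 3 matched no probe set. The histone and tapetum lists are described with the arrays. The other lists that matched, in the order chromatin proteins, ribosomal proteins, translation factors, tubulins, ubiquitin and proteasome, green tissue and pollen, held 2, 3, 5, 10, 2, 16 and 3 probe sets. Their median log2 differences of control 3.0 mm from earlier control anthers were −0.76, −0.57, −0.21, −0.03, −0.36, 0.39 and 0.25. These medians hide larger single differences. From earlier control anthers to those of 3.0 mm, means went from 11.02 to 14.43 for amy1 (pollen list). The profilin probe sets of that list went from 11.8 to 12.0 and from 12.0 to 12.3. CL9 (ribosomal proteins) went from 8.79 to 4.64 and PRK (green tissue) from 10.12 to 12.16. The fit was tested on simulated data. Alternatives were no filter, a filter on the cold arrays, quantile normalization, no photoperiod term, no variance trend, all 20 arrays in the fit, dim values lifted to percentile 40 of their array, each array left out, and looser (9.5 and 7.5) or, by as much, tighter thresholds.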

Additional observations from a re-analysis of the deposited data

Results flagged for a closer look

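In 10 of the 16 probe sets the cold level of 3.0 mm was above the mean of the shorter cold anthers under both day lengths, while the control level was lower under both, which the selection fixed. Both cold differences were positive in 25.3% of the probe sets tested (3495), and in 10.8% (1488) both control differences were negative as well. A difference between the temperatures was not tested, because the control arrays chose the probe sets. The mean cold difference was 1.27 for Ta.15818.1.S1_at, 0.92 for both Ta.23086.1.S1_at and Ta.2831.1.S1_at, 0.90 for Ta.30400.1.A1_at and 0.85 for Ta.30400.1.A1_x_at. It was 0.38 for Ta.3605.2.S1_a_at, 0.35 for Ta.3663.1.A1_a_at and TaAffx.16144.1.S1_at, 0.34 for Ta.15955.2.S1_a_at and 0.33 for Ta.3536.1.S1_at.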

How the results depend on the processing

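The number of probe sets selected depended on the thresholds, with 51 at 9.5 and 7.5 and 8 at thresholds as much tighter, while quantile normalization gave 17 and control arrays not asked one at a time gave 16 to 30. The median share kept stayed between 103% and 107% without single arrays of 3.0 mm. The median cold difference at 3.0 mm was 0.29 to 0.46 with any cold array left out. Between cold 3.0 mm and shorter cold anthers, 0 probe sets were called without the filter, the photoperiod term or the variance trend, 3 of 51 at 9.5 and 7.5, and 0 to 2 without single cold arrays. For light over the cold stages 1 was called with all 20 arrays in the fit. For light in cold anthers of 2.5 and 3.0 mm, 0 were called without the filter, with quantile normalization or at the tighter thresholds. At 9.5 and 7.5 it was 6 (2 lower and 4 higher), and 0 to 1 without a single cold array of 1.5, 2.0 or 2.2 mm. Without a cold array of 2.5 or 3.0 mm this light estimate rests on a single pair of arrays, so no count is given. For the difference of light effects, 1 was called with the filter on the cold arrays, with all 20 arrays or with dim values raised, 2 at 9.5 and 7.5, and 0 to 1 without single cold arrays. The causes were not tested. Between cold 3.0 and 2.5 mm, 0 of the 16 were called under each alternative run.

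Of 528 values of single probe sets under alternatives, for the cold difference at 3.0 mm and the light effect at 2.5 and 3.0 mm, 493 stayed on their side of the threshold with their direction, 3 passed it and 13 turned direction, all 13 of estimates not called. The other 19 lost the call, 11 of 17 for the cold difference of Ta.15818.1.S1_at and 8 of 16 for the light effect of Ta.1345.1.S1_x_at, the only calls among the 16. Light fits without a cold array of 2.5 or 3.0 mm, which rest on a single pair of arrays, are among these counts. The cold difference of Ta.1345.1.S1_x_at was 0.0074 after quantile normalization and −0.21 to 0.12 without single cold arrays. Without single cold arrays it was −0.27 to 0.79 for Ta.3249.3.A1_at, −0.22 to 0.12 for TaAffx.114016.1.S1_at and −0.00070 to 0.087 for TaAffx.38579.1.S1_at, and the light effect was −0.015 to 0.94 for Ta.2831.1.S1_at and −0.030 to 0.19 for TaAffx.38579.1.S1_at. The photoperiod term joins arrays of the same day length across stages, and the count without it, for the cold difference at 3.0 mm, is given above. With 2 arrays per temperature and stage, small changes cannot be resolved.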
